A study of Mus musculus with 6 samples.

Results

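The genes described are the 5 that attach the ubiquitin-like protein ISG15 to other proteins and take it off again. They are Isg15 (the modifier), Uba7 (its E1 activating enzyme), Ube2l6 (its E2 conjugating enzyme), Herc6 (its E3 ligase in the mouse) and Usp18 (the protease that removes it). They were chosen by name, and all 5 were found among the 55098 genes of the deposited table. RNA-seq was done on whole cerebella taken from males at postnatal day 60. There were 3 libraries from wild-type mice (WT, animals 1, 3 and 5) and 3 from mice labelled as Slc39a14 knock-out (KO, animals 2, 4 and 6), 1 library per animal. Slc39a14 encodes the metal transporter ZIP14, and the series presents the KO mouse as a model of childhood-onset dystonia-parkinsonism caused by manganese. The labels name no strain, no agent given to the mice and no part of the gene that was removed.

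ISG15 is a small protein built of a pair of ubiquitin-like domains. It is made after cells sense type I interferon and is joined to target proteins by a cascade of E1, E2 and E3 enzymes, much as ubiquitin is. The enzymes of the cascade and the protease are themselves induced by interferon. USP18 cuts ISG15 from its targets and, separately, binds the interferon receptor subunit IFNAR2 and damps signalling from it. In the brain, microglia, astrocytes, neurons and vascular cells can all switch these genes on.

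Total gene counts were 13805997 to 15788135 per library. Levels are given in CPM, counts scaled to each library's total over the genes kept for testing, after TMM scaling between libraries. By the total gene counts alone, without TMM, 1 count was worth 0.0633 to 0.0724 CPM. Slc39a14 itself was at 42.4 ± 1.33 CPM over WT and 42.3 ± 3.18 CPM over KO (SD, n = 3 each), so the level of the targeted gene gave no check of the genotypes, and all directions rest on the labels. On the first principal component of 1000 variable genes (29.6% of their variance) 2 libraries stood apart: WT 5 scored 25.9 and KO 4 scored 15.4, against -15.2 to -4.80 in the remaining 4. The second component (26.9%) set the groups apart, with scores of -17.4 to -10.3 in WT and 7.84 to 17.6 in KO. Markers of the cerebellum were abundant in all libraries. The Purkinje cell gene Itpr1 was at 3591 ± 273 CPM over WT and 3842 ± 270 CPM over KO, and the granule cell gene Cbln3 at 1266 ± 62.2 and 1187 ± 59.3 CPM (SD, n = 3 each). In such bulk RNA a change in the number of cells of a type and a change in RNA per cell cannot be told apart.

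All 5 genes had higher mean levels in KO, and they differed widely in how much. Usp18, the protease, rose 6.83-fold and was the only member that passed the test over all genes. Isg15 and Herc6 were 2.51-fold and 2.27-fold higher in KO and did not pass, and neither did Uba7 at 1.63-fold and Ube2l6 at 1.34-fold. The test was edgeR's quasi-likelihood test on 17142 genes, with a call at a Benjamini-Hochberg adjusted p under 0.05. Among all genes tested, 8 were called higher (0.0467%) and 0 lower (0%), against 1 and 0 of the 5 members. At an unadjusted p under 0.05, 289 genes were higher (1.69%) and 182 lower (1.06%) by edgeR, and 4 of the 5 members were higher. The median log2 fold change (KO minus WT) was 1.19 over the members and -0.004 over all genes tested. Values above 0 were found for 5 of 5 members and for 48.8% of all genes, and 5.66% of all genes were at or above the lowest member, Ube2l6. With WT 5 and KO 4 both left out, the log2 fold changes were 2.71 for Usp18 (edgeR adjusted p = 0.0131), 1.43 for Isg15, 1.17 for Herc6, 0.86 for Uba7 and 0.77 for Ube2l6, and Usp18 again was the only member called. In those 4 libraries 40 genes were called in all.

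The groups did not overlap in 4 of the 5 members, with KO on the higher side. Such a gap was present in 3.58% of all tested genes, and the reverse, with KO on the lower side, in 3.68% of all genes and in 0 members. Ube2l6 was the exception, because 1 WT library lay above all KO libraries. The plot of CPM by library shows these positions.

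**Figure D1:**
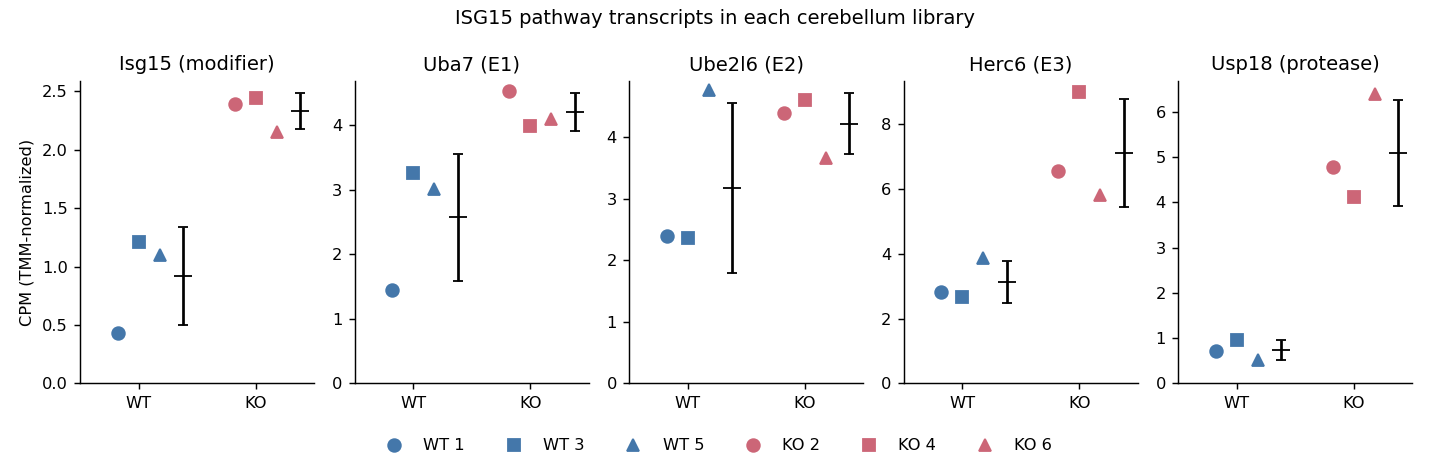
CPM (TMM-normalized) of the 5 genes in each of the 6 libraries, with the group mean and SD (n = 3) as a bar to the right of each group. The KO libraries lie above the WT libraries in every panel but that of Ube2l6, where WT 5 (4.77 CPM) is the highest of all.

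The modifier Isg15 (ENSMUSG00000035692) lies on the minus strand of chromosome 4, at 156199424 to 156200818 in GRCm38.p6. Its promoter is shown because it holds a run of the motif to which interferon-activated transcription factors bind. The sequence is RefSeq's for GRCm38.p6 (chr4:156200819-156200968, minus strand), the 150 bases before the annotated transcription start, 5′ to 3′. The capitals mark the motif matches, which overlap one another.

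Isg15: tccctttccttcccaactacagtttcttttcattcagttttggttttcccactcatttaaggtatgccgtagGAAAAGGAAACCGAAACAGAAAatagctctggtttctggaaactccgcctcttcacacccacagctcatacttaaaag

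The motif searched was GAAA, any 2 bases, then GAAA again, the core of the interferon-stimulated response element, on both strands of the 250 bases before each start. It was found 3 times in Isg15, between bases -78 and -57 from the start. Among all 32851 RefSeq promoter windows of that length, 2.98% held at least 1 match. Windows were found for 4 members, and those of Uba7, Ube2l6 and Herc6 held no such match. A shorter form, AAANNGAAA, was tried after the Uba7 sequence had been seen. It occurs in 9.37% of all windows and was found in Isg15, within the longer matches, and in Uba7, on the minus strand. The match lies within the Uba7 gene as the deposited table bounds it. The 30 bases around it are on the plus strand (chr9:107975529-107975558), with the match in capitals.

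Uba7: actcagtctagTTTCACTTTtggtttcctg

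The STAT motif TTCNNNGAA, present in 7.02% of windows, was found in none of these 4. A match describes the letters of a window and is not evidence that a factor was bound there.

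Isg15 gave 6, 19 and 15 counts for WT 1, 3 and 5, against 38, 35 and 30 for KO 2, 4 and 6. WT 1 was the lowest and the KO libraries lay close together. In CPM it was at 0.916 ± 0.420 for WT against 2.33 ± 0.154 for KO (SD, n = 3 per genotype). The log2 fold change was 1.33 (standard error, SE, 0.39, 95% interval 0.46 to 2.20, edgeR adjusted p = 1.0). The ratio of summed counts, KO to WT, was 2.51 with an exact 95% counting interval of 1.73 to 3.72, which covers counting error only. The difference was thus larger than counting error, and it did not pass once the spread between mice and the number of genes were taken into account.

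A near copy of Isg15 has a count of its own in the table. A processed pseudogene on chromosome 17 (AC151275.1, 46407004 to 46407484) is a copy of Isg15, with 459 of its 481 bases identical to the Isg15 transcript. It gave 2, 7 and 4 counts for WT 1, 3 and 5, against 0, 3 and 7 for KO 2, 4 and 6, too few to be tested. The sources used here do not give how reads were shared between such copies, so the Isg15 count is uncertain to that extent. With both rows summed, an alternative added after the data were seen, the counts were 8, 26 and 19 for the WT libraries and 38, 38 and 37 for the KO libraries. The groups still did not overlap, and the log2 fold change was 1.07 (SE 0.38, edgeR adjusted p = 1.0).

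Uba7 (ENSMUSG00000032596, chromosome 9, 107975505 to 107984060) encodes the E1 that activates ISG15 and starts the cascade. It gave 20, 51 and 41 counts for WT 1, 3 and 5, against 72, 57 and 57 for KO 2, 4 and 6. As with Isg15, WT 1 was the lowest library, and WT 3 was the nearest to the KO range. The levels were 2.57 ± 0.977 CPM (WT) and 4.20 ± 0.290 CPM (KO; SD, n = 3 per genotype), a log2 fold change of 0.70 (SE 0.31, 95% interval 0.02 to 1.38, edgeR adjusted p = 1.0). Without WT 1 the log2 fold change was 0.42. Uba7 overlaps the gene Gm20661 on the same strand, which had 13 counts in all WT and 20 in all KO libraries, against 112 and 186 for Uba7.

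Ube2l6 (ENSMUSG00000027078, chromosome 2, 84798828 to 84810335) encodes the E2 that receives ISG15 from UBA7. It gave 33, 37 and 65 counts for WT 1, 3 and 5, against 70, 66 and 51 for KO 2, 4 and 6. The WT 5 level of 4.77 CPM was above all 3 KO levels, which ran from 3.66 to 4.61 CPM. The means were 3.17 ± 1.38 CPM (WT) and 4.22 ± 0.498 CPM (KO; SD, n = 3 per genotype), a log2 fold change of 0.42 (SE 0.31, 95% interval -0.27 to 1.10, edgeR adjusted p = 1.0). The interval holds both no change and a 2.15-fold increase. Without WT 5 the groups no longer overlapped and the log2 fold change was 0.83, still with an adjusted p of 0.978 by edgeR. Without WT 1 and without WT 3 it was 0.26 and 0.24. AC102745.2, which the deposited table describes as a pseudogene of Ube2l6, had 0 counts in all libraries. In its best alignment with a Ube2l6 transcript 101 of 159 bases were identical.

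Herc6 (ENSMUSG00000029798, chromosome 6, 57581000 to 57664632) encodes a HECT-type ligase that carries out most ISG15 conjugation in mouse cells, where Herc5, which does so in human cells, is missing. It gave 39, 42 and 53 counts for WT 1, 3 and 5, against 104, 129 and 81 for KO 2, 4 and 6. Its lowest KO level (5.82 CPM) was above its highest WT level (3.89 CPM). The means were 3.13 ± 0.658 CPM (WT) and 7.12 ± 1.67 CPM (KO; SD, n = 3 per genotype), a log2 fold change of 1.19 (SE 0.25, 95% interval 0.63 to 1.74, edgeR adjusted p = 0.370). Herc6 ranked 39 of 17142 genes by p. It passed where no low-count filter was used (edgeR adjusted p = 0.00224) and did not pass by DESeq2 (adjusted p = 0.0841). The genes that overlap Herc6 had 1 count in all libraries together.

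Usp18 (ENSMUSG00000030107, chromosome 6, 121245906 to 121270917) gave 10, 15 and 7 counts for WT 1, 3 and 5, against 76, 59 and 89 for KO 2, 4 and 6. The means were 0.732 ± 0.222 CPM (WT) and 5.10 ± 1.17 CPM (KO; SD, n = 3 per genotype). Even the lowest KO library held 4.12 CPM against 0.957 CPM in the highest WT library. Among the members only this gene rose over all genes tested (log2 fold change 2.77, SE 0.33, 95% interval 2.05 to 3.50, edgeR adjusted p = 0.0237). The ratio of summed counts was 6.83, with a counting interval of 4.70 to 10.2. The call ended when WT 1, WT 3, KO 2 or KO 6 was left out (edgeR adjusted p = 0.157, 0.0685, 0.115 and 0.113) and with limma-voom (adjusted p = 0.0510). The log2 fold change then ran from 2.58 to 3.03. The overlapping antisense gene Gm44148 had 2 counts in all libraries together, 1 in each group.

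**Figure D2:**
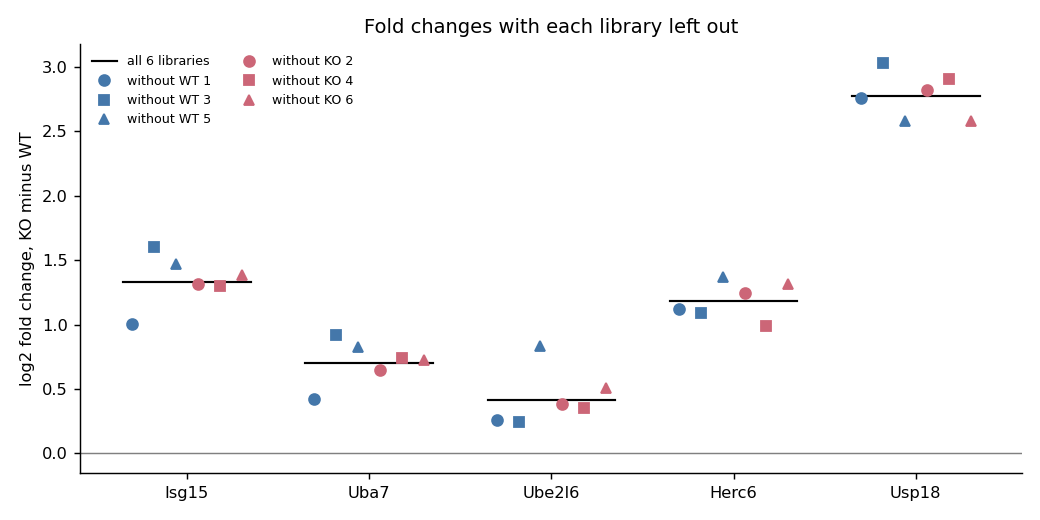
Log2 fold change (KO minus WT, edgeR) of the 5 genes with all 6 libraries (line) and with each library left out in turn (points). No point lies below 0. Usp18 stays between 2.58 and 3.03, whereas Ube2l6 moves between 0.24 and 0.83.

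The authors' deposited table gives the same order of fold changes. In the authors' deposited table the log2 fold changes are 2.79 for Usp18, 1.34 for Isg15, 1.19 for Herc6, 0.71 for Uba7 and 0.42 for Ube2l6. Of the 5, only Usp18 passes there (adjusted p = 4.59e-07 in the authors' deposited table), and Herc6 is next (adjusted p = 0.0779).

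Levels of different genes were compared per length, in the authors' FPKM (fragments scaled by gene length and library total). In WT the order was Ube2l6 (1.53 ± 0.673 FPKM), Isg15 (1.16 ± 0.535), Uba7 (0.368 ± 0.141), Herc6 (0.323 ± 0.0699) and Usp18 (0.251 ± 0.0754; SD, n = 3 each). Only Isg15 and Uba7, among neighbours in that order, had ranges that did not overlap. In KO the order was Isg15 (2.92 ± 0.191 FPKM), Ube2l6 (2.01 ± 0.235), Usp18 (1.73 ± 0.399), Herc6 (0.727 ± 0.171) and Uba7 (0.595 ± 0.0399; SD, n = 3 each). Here the ranges of Isg15 and Ube2l6 were apart, as were those of Usp18 and Herc6. Usp18 thus moved from the last place in WT to the third in KO. The E1 and the E3 were the least abundant of the 5 in KO.

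Next to their relatives in the ubiquitin system the members were scarce. Ubb, a polyubiquitin gene, was at 295 ± 50.6 FPKM in WT, 254 times the level of Isg15, and in KO at 92.0 times that level. Uba1, the main E1 of ubiquitin, was at 67.4 ± 7.78 FPKM in WT and 65.7 ± 4.84 in KO, or 183 and 110 times the level of Uba7. Ube2l3, the E2 most closely related to Ube2l6, was at 17.7 ± 0.530 FPKM in WT and 17.9 ± 0.384 in KO (SD, n = 3 each). Ube2l6 made up 6.20%, 6.09% and 11.2% of the summed FPKM of these 2 E2 genes in WT 1, 3 and 5 and 10.4%, 10.7% and 9.05% in KO 2, 4 and 6, so the groups overlapped. Herc6 made up 6.31%, 6.43% and 8.06% of the summed FPKM of Herc6 and Herc4 in WT 1, 3 and 5 and 13.8%, 16.5% and 13.4% in KO 2, 4 and 6. Those groups did not overlap. The related ligase gene Herc3 was at 23.6 ± 1.23 FPKM in WT and 22.3 ± 0.952 in KO, far above Herc6 in each.

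**Figure D3:**
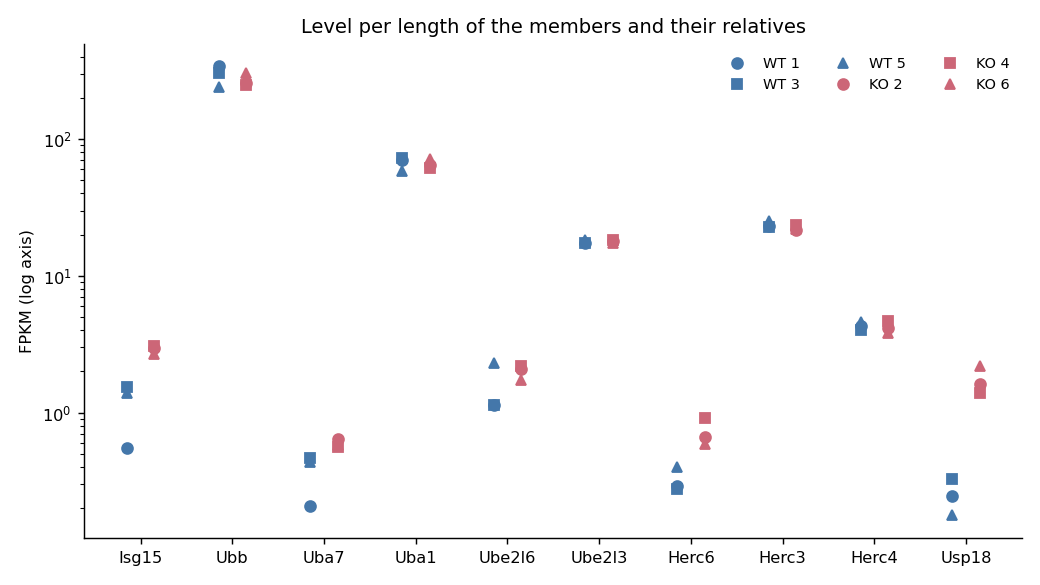
FPKM (log axis) of the 5 members and of 5 relatives in each library, WT to the left and KO to the right of each tick. Ubb, Uba1, Ube2l3, Herc3 and Herc4 lie at similar heights in WT and KO, with all members below 4 FPKM.

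The relatives did not pass the test, and their log2 fold changes were small. They were -0.12 for Ubb (95% interval -0.43 to 0.19), -0.02 for Uba1 (-0.27 to 0.22) and 0.04 for Ube2l3 (-0.16 to 0.23). Herc3 was at -0.06 (-0.26 to 0.13) and Herc4 at -0.01 (-0.27 to 0.25).

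Ratios within a library ask whether the members differ in how far they moved, free of any scaling between libraries. The log2 ratio of Usp18 to Isg15 counts (2 added to each) was 0.58, -0.30 and -0.92 in WT 1, 3 and 5 and 0.96, 0.72 and 1.51 in KO 2, 4 and 6. Every KO ratio was higher, by 1.28 on average. The ratio of Uba7 to Isg15 was 1.46, 1.34 and 1.34 in WT and 0.89, 0.67 and 0.88 in KO, lower in every KO library (difference -0.56). That of Ube2l6 to Isg15 was 2.13, 0.89 and 1.98 in WT and 0.85, 0.88 and 0.73 in KO (difference -0.85). WT 3 there lay close to the KO libraries. Each of these 3 had an exact two-sided permutation p = 0.1, the smallest that 3 against 3 libraries allow, and 0.133 after Benjamini-Hochberg adjustment over 4 ratios. With 5 in place of 2 added to each count, the Ube2l6 ratio had an exact permutation p = 0.2, and the other two kept 0.1. The ratio of Herc6 to Isg15 differed by -0.17, with overlapping groups (exact permutation p = 0.8). It turned to 0.15 without WT 1, whose Isg15 count of 6 has an exact Poisson interval of 2.20 to 13.1.

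**Figure D4:**
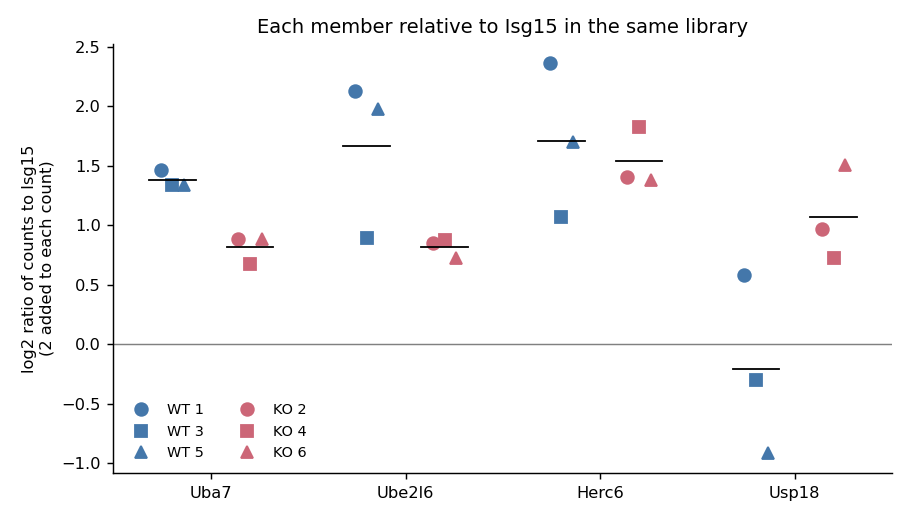
Log2 ratio of each member's count to the Isg15 count of the same library, 2 added to each count, with group means as lines. Usp18 lies higher in the KO libraries and Uba7 lower, Ube2l6 is lower by a narrow gap to WT 3, and Herc6 overlaps.

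The libraries of a group differed in different ways for different members. WT 1 was lowest of the WT libraries for Isg15 and Uba7, whereas WT 5 was highest for Ube2l6 and Herc6 and lowest for Usp18. Among KO libraries, KO 6 was highest for Usp18 (6.39 CPM) and lowest for Isg15 (2.15 CPM), Ube2l6 (3.66 CPM) and Herc6 (5.82 CPM). KO 4 was highest for Isg15 (2.44 CPM), Ube2l6 (4.61 CPM) and Herc6 (9.01 CPM) and lowest for Usp18 and Uba7.

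Over the 6 libraries, the Pearson correlation of log2 CPM between members ran from 0.41 (Usp18 and Ube2l6) to 0.97 (Isg15 and Uba7). These values are descriptions, since the points share the 2 groups and low counts. Among 13685 protein-coding genes averaging 1 CPM or more, those most like Usp18 were Lgals3bp (r = 0.998), Ifi27 (0.991) and Trmt12 (0.990), a tRNA-modifying enzyme. Lgals3bp, a secreted glycoprotein, was at 7.72 ± 1.14 CPM over WT and 26.2 ± 5.05 CPM over KO, and the interferon-induced Ifi27 at 11.6 ± 1.15 and 35.4 ± 6.44 CPM (SD, n = 3 each). Both rose (edgeR adjusted p = 0.0126 each, log2 fold changes 1.76 and 1.60), and the calls of both ended without WT 1, WT 3 or KO 2. Most like Herc6 were the interferon-induced Ifi44 (0.989), Mill2, which encodes a protein related to MHC class I (0.983), and Sycp3, which encodes a protein of meiotic chromosomes (0.980). Ifi44 was at 0.517 ± 0.251 CPM over WT and 3.87 ± 1.30 CPM over KO (SD, n = 3 each).

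Isg15 was most like 1600014C10Rik (0.982), Fcgr3, which encodes an immunoglobulin receptor of myeloid cells (0.973), and Uba7 (0.972). Uba7 was most like Iars2, a mitochondrial tRNA synthetase (0.974), then Isg15 and Fcgr3 (0.966). Fcgr3 was at 2.14 ± 0.600 CPM (WT) and 3.27 ± 0.224 CPM (KO; SD, n = 3 per genotype), a log2 fold change of 0.60 (SE 0.28, edgeR adjusted p = 1.0). Ube2l6 had Fam228b, Zfp407 and Intu as its nearest genes (0.987, 0.987 and 0.986), and in each of those the groups overlapped.

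Other genes of the pathway were read from 9 lists with 196 genes, of which 170 could be tested and 1 rose. Among 11 other ligases, proteases and regulators of ISG15 none passed, 6 were positive and the median log2 fold change was 0.02. The one whose groups did not overlap upward was Trim25, a ubiquitin ligase also reported to act on ISG15. It was at 5.42 ± 1.21 CPM (WT) and 10.04 ± 2.71 CPM (KO; SD, n = 3 per genotype), a log2 fold change of 0.89 (SE 0.25, edgeR adjusted p = 1.0). The integrin subunit Itgb2, part of a receptor for free ISG15, was at 0.42 on the log2 scale and its partner Itgal at -0.14, and neither passed. The proteases Usp21, Usp16, Usp14 and Usp5, which can act on ISG15 as well as ubiquitin, lay between -0.08 and 0.03. Ifnar2 and Stat2, which join USP18 in damping interferon signals, were at 0.06 and 0.15.

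The receptor, JAK-STAT and IRF list had 15 genes, of which 11 were positive and none passed (median 0.15). Irf7, a transcription factor that acts on interferon-responsive promoters, had the smallest p. Its log2 fold change was 2.75 (SE 0.41, edgeR adjusted p = 0.0791), and the groups did not overlap. Of the 21 interferon genes, 18 had no count in any library, and the other 3 (Ifnab, Ifnk and Ifnz) had 8 counts in all 6 libraries together. None could be tested. A count of 0 allows up to 3 counts, 0.19 to 0.217 CPM in these libraries by the total gene counts without TMM.

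Of 24 genes whose proteins have been reported to carry ISG15, 15 were positive (median 0.06) and 1 rose. This was Ifit1, an inhibitor of viral RNA translation, at 2.49 ± 0.604 CPM for WT against 15.1 ± 4.25 CPM for KO (SD, n = 3 per genotype), with a log2 fold change of 2.60 (SE 0.27, edgeR adjusted p = 0.0126). Its call ended without WT 1, WT 3 or KO 6 (edgeR adjusted p = 0.132, 0.0685 and 0.0553). Others of the list whose groups were apart included Eif2ak2, Ddx58, Mx1 and Parp14, which are interferon-induced genes themselves and did not pass.

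The lists of general ubiquitin-like machinery held no called gene. The medians were -0.03 for 20 tested modifiers (7 positive), -0.02 for 9 other E1 genes (3 positive) and -0.02 for 34 other E2 genes (15 positive). They were -0.02 for 23 HERC and HECT ligases (6 positive) and -0.02 for 45 other ubiquitin-specific proteases (18 positive). The smallest p in these 5 lists was that of Usp13, at 23.3 ± 1.65 CPM for WT against 19.2 ± 1.30 CPM for KO (SD, n = 3 per genotype), with a log2 fold change of -0.28 (SE 0.13, edgeR adjusted p = 1.0). The others named by the rule included Sumo3 (0.10), Nae1 (0.13), Sae1 (0.11), Ube2e2 (-0.16), Ube2a (0.19), Herc2 (-0.10), Nedd4l (-0.09) and Usp37 (-0.18), all log2 fold changes that did not pass.

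**Figure D5:**
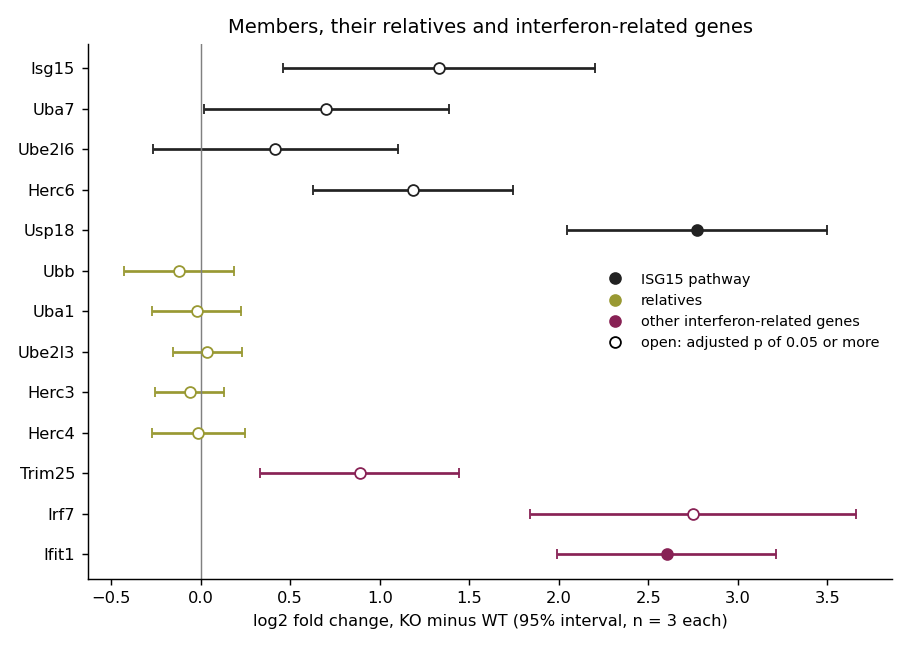
Log2 fold change (KO minus WT) with its 95% interval from edgeR (n = 3 each) for the 5 members, 5 relatives and 3 genes named from the interferon-related lists. Filled points have an adjusted p under 0.05 (Usp18 and Ifit1), and the intervals of the 5 relatives all hold 0.

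Markers of some other cells also had higher mean levels in KO. The summed CPM of 15 microglia markers was 140 to 152 in WT and 169 to 222 in KO, apart in the 2 groups, with 13 of 15 markers positive, 0 of 15 called and a median log2 fold change of 0.40. Csf1r was at 0.19 on the log2 scale, while P2ry12 (0.001) and Cx3cr1 (0.11) were close to 0 and Fcrls was at -0.79. No microglia marker was at 0 counts. The largest value of the list was 1.01, for the protease Ctss. The part of microglia in the ISG15 pathway values was not tested.

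Choroid plexus markers were all positive (12 of 12, 0 called, median 1.35), and their summed CPM was 168 to 795 in WT and 644 to 1926 in KO, so that the groups overlapped. At an unadjusted p under 0.05 by edgeR, 11 of the 12 were higher in KO, against 1.69% of all tested genes. The groups did not separate in any of the 12. Ttr and Kl were at 1.76 and 1.31 on the log2 scale. By library, the sum was 795, 295 and 168 CPM in WT 1, 3 and 5 and 1413, 1926 and 644 CPM in KO 2, 4 and 6. The part of the choroid plexus in the ISG15 pathway values was not tested either.

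Genes of blood leukocytes were scarce. The 12 markers of T, B and plasma cells summed to 4.47 to 7.19 CPM in WT and 4.53 to 6.89 CPM in KO. Only Ighm (0.41) and Trac (-0.39 on the log2 scale) could be tested, and neither passed. Named after their values were seen, the T cell receptor genes Cd3d and Cd3e had 4 and 6 counts in WT 5 and 0 in each of the other libraries. Among 10 markers of monocytes, neutrophils and plasmacytoid dendritic cells 3 could be tested, none passed, and the summed CPM was 48.8 to 71.6 in WT and 42.4 to 80.2 in KO. Bst2, itself induced by interferon, was at 2.00 and Nr4a1 at -0.11 on the log2 scale.

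In the other marker lists no gene passed. The medians were 0.23 for meninges and fibroblasts (Col1a2 0.22, Dcn 0.27), 0.07 for endothelial and mural cells (Slc2a1 0.31, Rgs5 0.23) and 0.06 for astrocytes and Bergmann glia (Slc1a3 -0.03, Slc1a2 0.05). Purkinje cells were at 0.09 (Itpr1 0.10, Rgs8 -0.04), granule cells at -0.10 (Cbln3 -0.09, Zic1 -0.11) and oligodendrocytes at -0.06 (Mbp 0.08). Ependymal cells were at 0.14 (Foxj1 0.28, Rarres2 0.02) and red blood cells at -0.17 (Hbb-bs 0.06, Hba-a1 0.13).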

How the data were processed

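Counts per gene were deposited as whole numbers, not normalized, for 6 cerebellum libraries. The authors also deposited FPKM values per library, group means as a signal of normalized counts, log2 fold changes and p-values. The submitters' processing notes name HISAT2, DESeq2 and GRCm38.p6. The counting program and its strand setting are not stated in the sources used here. Listed counts made up 93.8% to 97.7% of the library totals implied by the deposited FPKM.

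Sample titles gave each library's group and animal. The test was edgeR 4.0.16 under R 4.3.3 (TMM factors 0.990 to 1.01, filterByExpr by group, glmQLFit, Benjamini-Hochberg over 17142 genes). Standard errors were taken as the size of the log2 fold change divided by the square root of F. The edgeR p-values set the difference between groups against the spread between mice (3 per group). That spread was estimated in part from all genes tested. DESeq2 1.42.0, limma-voom (limma 3.58.1), other scalings and filters and left-out libraries were alternatives. The fits were tested on simulated data. Exact permutation tests used scipy 1.17.1. Copies were aligned to GENCODE M21 transcripts.

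The members and lists were chosen with earlier results of these data known. The rule for named genes took the members, 5 relatives, the called genes or the 2 smallest p of each pathway list, the 2 most abundant markers of each cell type and the 3 genes most like each member. Other genes were named after their values were seen. Some genes that the rule takes are not reported here.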

Additional observations from a re-analysis of the deposited data

How the results depend on the processing

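No member changed direction under any of the 15 alternatives (16 for Isg15) of its fold change. Usp18 lost its call with limma-voom (log2 fold change 2.74) and gave 2.58 to 3.03 with single libraries left out, with adjusted p-values of 0.0194 to 0.157. Herc6 passed with no filter on low counts (1.19) and gave 0.99 to 1.37 with single libraries left out. Isg15 ran from 1.00 to 1.60, Uba7 from 0.42 to 0.92 and Ube2l6 from 0.24 to 0.83 in the same way. The number of members called was 2 with no filter, 0 with limma-voom and 0 to 1 with single libraries left out. The number of members whose groups were apart was 4 to 5. It was 5 without WT 5 and with WT 5 and KO 4 both left out. Groups separate more easily with fewer libraries, and the share of all genes with such a gap was not computed there. The alternatives for this number, like the pseudogene sum and those of Ifit1, Lgals3bp and Ifi27, were chosen after seeing the data. Over all genes 142 were called with no filter, 38 by DESeq2, 40 with WT 5 and KO 4 both left out and 0 to 28 with single libraries left out (0 without WT 1 or WT 3, 28 without WT 5, 2 without KO 2, 17 without KO 4 and 3 without KO 6). Of the pathway lists 8, 5, 4 and 0 to 4 genes were called in those same settings. The ratio of Herc6 to Isg15 ran from -0.49 to 0.15 with single libraries left out and reversed to 0.15 without WT 1. The causes were not tested. No paired analysis was possible because the WT and KO animals share no number. Isg15 had 6 to 38 counts per library, so that counting error alone is wide there.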
